A study of Mus musculus with 9 samples.

Results

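miR-191 and miR-425 are 2 miRNA hairpins that lie close together on mouse chromosome 9. Their 4 mature arms, mmu-miR-191-5p, mmu-miR-191-3p, mmu-miR-425-5p and mmu-miR-425-3p (mmu for mouse, left out below), were taken by name from a table of 986 mature miRNA entries. They were chosen by the level of miR-191-5p, which was low in the library of embryos lacking miR-18a, so that value is given as a description and without a test. The comparison asks whether the partner arm and the neighbour hairpin were low in the same library. All 4 arms averaged at least 10 nRPM (RPM values on the normalised scale of the deposited table) over the genotype libraries, as did 551 entries in all.

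Small RNA was sequenced from mouse embryos at embryonic day 9.5, all labelled female, whose heart and tail bud had been dissected off. Apart from wild type, they carried alleles that lack a part or the whole of the miR-17~92 cluster, and each of 8 genotypes gave 1 library. ΔmiR-17 lacks the miR-17 family members of the cluster and ΔmiR-18 lacks miR-18a. ΔmiR-19 lacks the miR-19 family members of the cluster and ΔmiR-92 lacks miR-92a-1. Below, a deleted family stands for its members in the cluster only. ΔmiR-17,18 and ΔmiR-17,18,92 lack several of these at once, the full deletion lacks all of them, and wild type keeps the whole cluster. Zygosity, strain and the number of embryos in a library are not stated in the sources used here. With 1 library per genotype no difference between genotypes has a replicate check, and every interval below is a 95% interval that covers counting error only. In bulk RNA, fewer cells that make a miRNA and less of it per cell cannot be told apart.

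A miRNA hairpin is cut by Dicer into a duplex of a 5p and a 3p arm, of which usually 1 is kept by Argonaute as the guide and the other is mostly degraded. Arms of 1 hairpin, and hairpins of 1 primary transcript, share their transcription, while processing and turnover can set the mature arms apart. The guide finds its targets mainly through its seed, the bases from position 2 to position 8. miR-191-5p is the usual guide of its hairpin, is present in many tissues and is often used as a reference miRNA for normalisation. In mouse erythroblasts miR-191 is known to act on enucleation, and in human cells miR-425-5p is known to act on the mRNA of atrial natriuretic peptide.

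The mature sequences show what separates the 4 arms. They come from RefSeq (GRCm38.p6, plus strand of chromosome 9), are written 5′ to 3′, and have the seed in capitals.
miR-191-5p: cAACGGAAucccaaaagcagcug
miR-191-3p: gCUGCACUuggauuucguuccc
miR-425-5p: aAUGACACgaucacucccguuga
miR-425-3p: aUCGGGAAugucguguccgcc
No seed was shared among the 4, and each mature sequence occurred once among the RefSeq entries, so the arms could be counted apart. miR-489-3p, which shares the seed of miR-425-5p, averaged 4.52 nRPM and ranged from 1.25 to 8.59 nRPM.

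The hairpins are printed because the question is how arms and neighbours of 1 locus part. Capitals mark the mature arms, with the 5p arm first.
Mir191: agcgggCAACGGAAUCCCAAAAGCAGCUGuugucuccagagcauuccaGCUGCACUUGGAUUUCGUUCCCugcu
Mir425: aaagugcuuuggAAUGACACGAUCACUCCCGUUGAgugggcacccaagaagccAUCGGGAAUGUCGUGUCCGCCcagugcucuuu
Mir191 lies at chr9:108568319-108568392 and Mir425 at chr9:108568777-108568861 of GRCm38.p6, with 384 bases between them. RefSeq places both within the span of Dalrd3 (108567484 to 108572773). In GENCODE M21 both lie in the single exon of a transcript of the non-coding gene 4833445I07Rik (108567533 to 108569174), and Dalrd3 begins 1024 bases after Mir425. The deposited table was made on the older build mm9, so these positions are not those of the table. A predicted antisense miRNA gene, Gm24083, overlaps Mir191 on the minus strand, and the sources used here do not say whether reads were counted by strand.

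Reads assigned to miRNAs numbered between 6564461 (ΔmiR-92) and 18481223 (ΔmiR-18), with 7070844 in wild type, and 1 read was worth between 0.0624 nRPM (ΔmiR-18) and 0.157 nRPM (wild type). The deleted miRNAs followed the labels. miR-18a-5p had between 4.30 and 72.6 nRPM in the 4 libraries that lack it and between 3446 and 12792 nRPM in the 4 that keep it, and miR-17-5p, miR-19a-3p and miR-92a-1-5p likewise did not overlap between the libraries without and with them. Of the marker lists, blood miRNAs (miR-451, miR-144, miR-486, miR-142, miR-223 and miR-150) had their highest sum in ΔmiR-18. That sum was 3466 nRPM in ΔmiR-18 and between 1473 and 2818 nRPM in the other 7 libraries, with 2257 nRPM in wild type. Of the 8 blood miRNAs, 6 averaged at least 10 nRPM. In ΔmiR-18, 4 of these were at least 2-fold above wild type, as were 9.26% of all 551 miRNAs. miR-144-5p fell just short of that, at a log2 ratio to wild type of 0.99. miR-486-5p, the most abundant of them on average, went the other way, at -0.33. miR-223-3p (0.46) and miR-150-5p (0.75) averaged below 10 nRPM and had 0 reads in some libraries. The part of the blood miRNAs in the results below was not tested.

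miR-191-5p, the usual guide, was far lower in ΔmiR-18 than in any other library. It had 401 nRPM in ΔmiR-18 (interval 392 to 411, from 6434 reads). It had 4681 nRPM in the full deletion, 3515 nRPM in ΔmiR-17,18,92, 5754 nRPM in ΔmiR-17,18, 4843 nRPM in ΔmiR-92, 4388 nRPM in ΔmiR-19, 3102 nRPM in ΔmiR-17 and 3971 nRPM in wild type (25353 reads). The next lowest library, ΔmiR-17, was 7.73-fold above ΔmiR-18. In rank of level miR-191-5p stood at place 210 in ΔmiR-18 and at place 56 in wild type. The ratio of ΔmiR-18 to wild type was 0.101 (0.0983 to 0.104), a log2 ratio of -3.31, and the ratio to the median of the other 7 libraries was 0.0915.

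miR-18a was also absent from the full deletion, ΔmiR-17,18,92 and ΔmiR-17,18, and there miR-191-5p was not low. Its ratio to wild type was 1.18 in the full deletion, 0.885 in ΔmiR-17,18,92 and 1.45 in ΔmiR-17,18. The 3 remaining mutants had ratios of 0.781 (ΔmiR-17), 1.11 (ΔmiR-19) and 1.22 (ΔmiR-92). Leaving out ΔmiR-18, miR-191-5p spanned 1.86-fold over 7 libraries. With ΔmiR-18 it spanned 14.3-fold. Since the library left out is the one that chose it, neither span is set against those of other miRNAs. In the order of the 8 levels, no 2 neighbouring libraries had overlapping counting intervals, but counting error is only a part of the error between libraries.

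**Figure D1:**
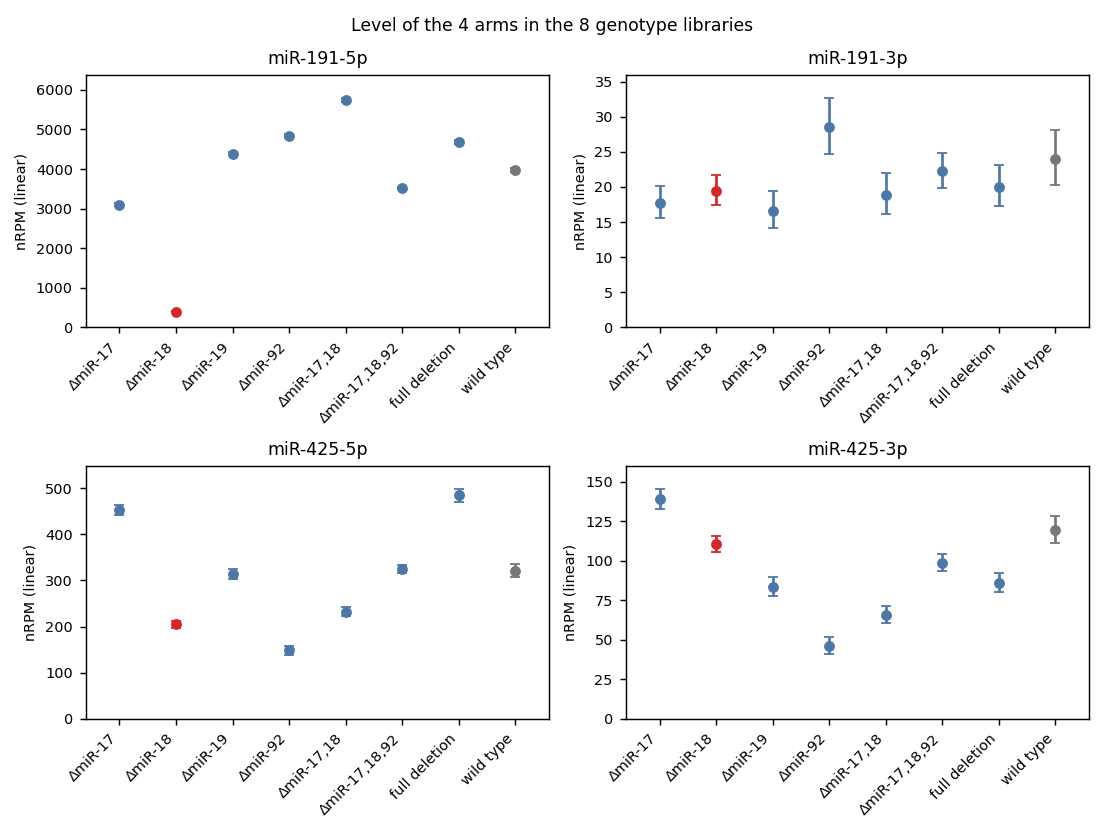
Level of the 4 arms (nRPM) in each of the 8 genotype libraries, with 1 point per library and bars for the 95% Poisson counting interval. miR-191-5p is at 401 nRPM in ΔmiR-18 and between 3102 and 5754 nRPM elsewhere, while both miR-425 arms are lowest in ΔmiR-92.

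miR-191-3p, the partner arm, did not share the low level. It had 19.5 nRPM in ΔmiR-18 (17.4 to 21.8, from 312 reads). It had 20.05 nRPM in the full deletion, 22.2 nRPM in ΔmiR-17,18,92, 18.9 nRPM in ΔmiR-17,18, 28.5 nRPM in ΔmiR-92, 16.6 nRPM in ΔmiR-19, 17.8 nRPM in ΔmiR-17 and 24.0 nRPM in wild type (153 reads). ΔmiR-18 stood at place 4 of 8 from the lowest, and only when plain library totals were used for scaling was it the lowest. The ratio of ΔmiR-18 to wild type was 0.812 (0.667 to 0.992), and that to the median of the other 7 was 0.971. No mutant was 2-fold from wild type, and the counting intervals of all 7 pairs of neighbours in the order overlapped. The highest library, ΔmiR-92, lay clear of 5 others, and the ratio of ΔmiR-18 to ΔmiR-92 was 0.684 (0.570 to 0.821).

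miR-425-5p, the more abundant arm of the neighbour hairpin, was lower in ΔmiR-18 than in wild type by much less than miR-191-5p. It had 205 nRPM in ΔmiR-18 (198 to 212, from 3283 reads). It had 485 nRPM in the full deletion, 325 nRPM in ΔmiR-17,18,92, 233 nRPM in ΔmiR-17,18, 148 nRPM in ΔmiR-92, 314 nRPM in ΔmiR-19, 453 nRPM in ΔmiR-17 and 321 nRPM in wild type (2048 reads). ΔmiR-18 was the second lowest library and ΔmiR-92 the lowest. The ratio of ΔmiR-18 to wild type was 0.639 (0.604 to 0.675), a log2 ratio of -0.65 against -3.31 for miR-191-5p. In ΔmiR-92 the ratio to wild type was 0.462 (0.428 to 0.498), and the highest was 1.51, in the full deletion. Wild type could not be told from ΔmiR-19 or from ΔmiR-17,18,92 by counting interval, and the other 5 pairs of neighbours in the order did not overlap.

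miR-425-3p, the partner arm of miR-425-5p, was near its wild-type level in ΔmiR-18. It had 111 nRPM in ΔmiR-18 (1775 reads). It had 86.1 nRPM in the full deletion, 98.8 nRPM in ΔmiR-17,18,92, 65.7 nRPM in ΔmiR-17,18, 46.2 nRPM in ΔmiR-92, 83.6 nRPM in ΔmiR-19, 139 nRPM in ΔmiR-17 and 119 nRPM in wild type (762 reads). ΔmiR-18 was at place 6 of 8 from the lowest, below wild type and ΔmiR-17. The ratio of ΔmiR-18 to wild type was 0.928 (0.852 to 1.01), and that to the median of the other 7 was 1.29, so the direction depended on what ΔmiR-18 was set against. Its lowest library was again ΔmiR-92, at 0.387 of wild type (0.339 to 0.442), and ΔmiR-17,18 followed at 0.551.

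Set against all miRNAs, 1 of the 4 arms was at least 2-fold below wild type in ΔmiR-18. That share was 8.53% among the 551 miRNAs, and nothing is read from the count because the arm was chosen for it. The median log2 ratio of all 551 was -0.02. The lowest of the 8 libraries was ΔmiR-18 for 9.07% of miRNAs and for 1 of the 4 arms. In ΔmiR-92, 2 of the 4 arms were at least 2-fold below wild type, both of miR-425, against 8.71% of all miRNAs. These 2 arms come from 1 hairpin and are not independent. ΔmiR-92 was the lowest library for both, as it was for 14.0% of all miRNAs. The sum of the neural markers (miR-9-5p, miR-124-3p and miR-219-5p) was also lowest in ΔmiR-92, at 1853 nRPM. It was between 2352 and 5087 nRPM in the other 7 libraries. The sums of the blood, muscle and heart, endothelial, early embryo, epithelial and liver markers were not lowest in ΔmiR-92. Over the 8 libraries miR-9-5p ran from 620 to 3686 nRPM and miR-219-5p from 21.6 to 190 nRPM. miR-124-3p ran only from 937 to 1502 nRPM, so the sum mostly follows miR-9-5p. The part of the neural markers in the result was not tested. With plain library totals 1 of the 4 was past 2-fold in ΔmiR-92, since miR-425-5p then had a log2 ratio of -0.88. No arm was 2-fold from wild type in the other 5 mutants, in which between 13.2% (ΔmiR-17) and 25.8% (ΔmiR-17,18) of all miRNAs were past 2-fold in either direction, with 20.7% in the full deletion, 22.7% in ΔmiR-17,18,92 and 15.8% in ΔmiR-19.

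**Figure D2:**
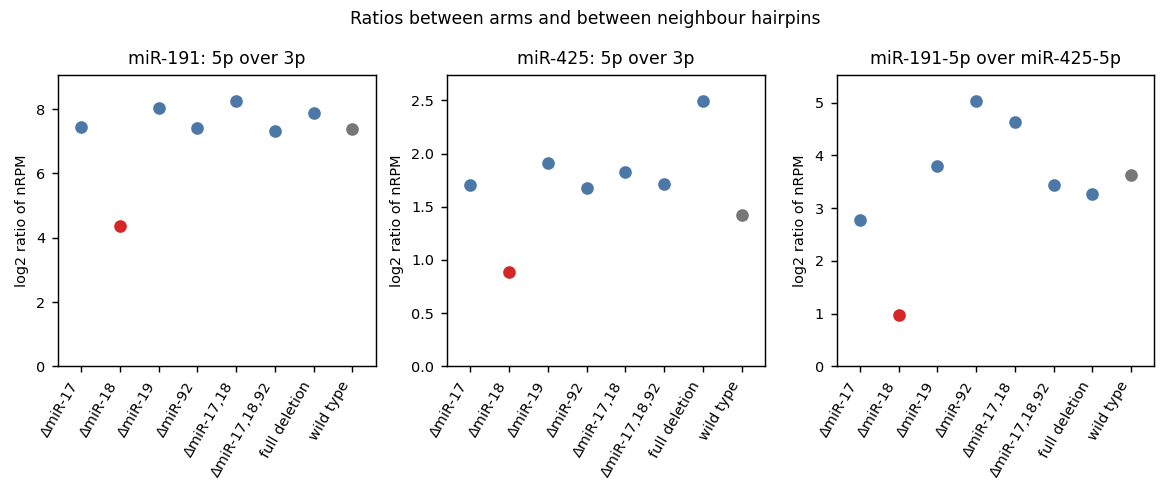
Log2 ratios in the genotype libraries, for the 5p over the 3p arm of miR-191, the same for miR-425, and miR-191-5p over miR-425-5p. In ΔmiR-18 they were 4.37, 0.89 and 0.97 in that order, each the lowest of the genotype libraries. In wild type they were 7.37, 1.43 and 3.63.

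How far ΔmiR-18 stood below every other library was described for all 551 miRNAs. In 3 of them (0.544%) the level in ΔmiR-18 was at most 0.5 of the lowest other library, namely miR-191-5p, miR-154-3p and miR-423-3p. A level at least 4-fold below the median of the other 7 libraries was found in ΔmiR-18 for 6 miRNAs (1.09%), and in the other libraries for up to 16 (2.9%, full deletion) and for as few as 3 (0.544%, wild type). The 6 were both arms of the deleted miR-18a, then miR-191-5p, miR-494-3p, miR-154-3p and miR-423-3p, named after their values were seen. Because miR-191-5p was chosen for its low value in ΔmiR-18, its place in both groups is a description only.

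**Figure D3:**
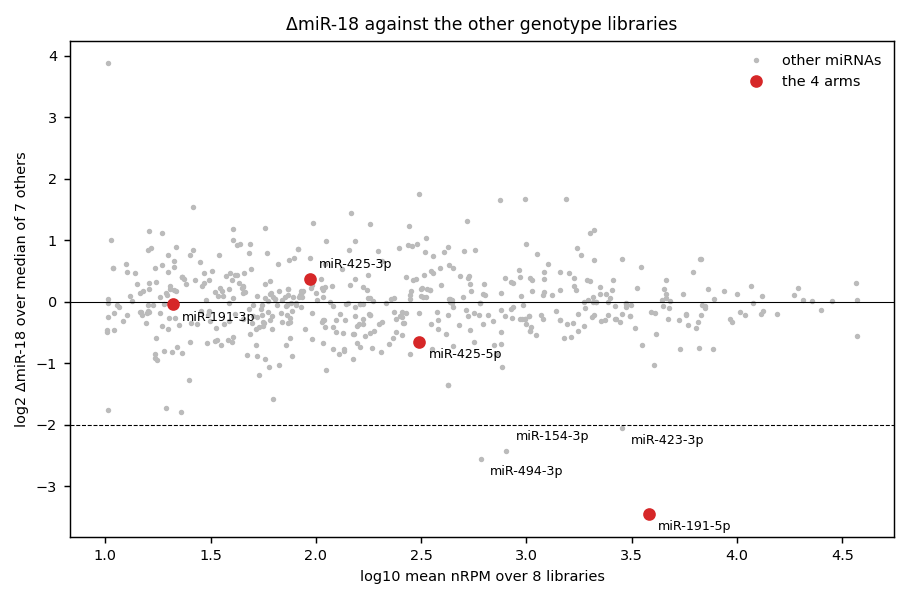
Log2 ratio of ΔmiR-18 to the median of the other 7 libraries against mean level (nRPM, log axis) for 538 miRNAs, without the arms of the miR-17~92 cluster. miR-191-5p lies at -3.45, below all others plotted, a place that rests on the value by which it was chosen. The other 3 arms lie between -0.65 and 0.36.

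The partner arms of the 3 other low miRNAs were nearer to the median of the other libraries, but for miR-423 not to wild type. miR-494-3p, of the imprinted Dlk1-Dio3 region on chromosome 12, had 87.0 nRPM in ΔmiR-18 and between 173 and 1295 nRPM in the other 7, while its partner miR-494-5p was at 1.08 of their median. miR-154-3p, of the same region, had 163 nRPM in ΔmiR-18 and between 567 and 1454 nRPM in the others, with its partner at 0.668 of their median. miR-423-3p had 815 nRPM in ΔmiR-18 and between 2379 and 3711 nRPM in the others, with its partner at 0.590. Against wild type the arms of miR-423 were alike, at 0.220 (3p) and 0.261 (5p). Their sequences are printed beside that of miR-191-5p because all 4 were low in the same library. Seeds are in capitals.
miR-191-5p: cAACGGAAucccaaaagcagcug
miR-494-3p: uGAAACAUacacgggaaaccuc
miR-154-3p: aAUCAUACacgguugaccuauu
miR-423-3p: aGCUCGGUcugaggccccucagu
No seed was shared among these 4.

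The ratio of the 5p to the 3p arm cancels the scaling of a library. For miR-191 it was 20.6 in ΔmiR-18, 234 in the full deletion, 158 in ΔmiR-17,18,92, 305 in ΔmiR-17,18, 170.1 in ΔmiR-92, 264 in ΔmiR-19, 174 in ΔmiR-17 and 166 in wild type. The 5p arm thus made up 95.4% of the hairpin's reads in ΔmiR-18 and between 99.4% and 99.7% in the other libraries. On the log2 scale the ratio was 4.37 in ΔmiR-18 and 7.37 in wild type, a difference of -3.01. It was set among 168 hairpins with both arms at 10 nRPM or more and counted in every library, without those of the miR-17~92 cluster. Some of these hold the same values under more than 1 name, such as miR-374 and miR-374c (0.81 in size each). Among the 168 this was the third largest difference in size, after miR-193 (-3.59) and miR-494 (3.26). That place again rests on the value that chose miR-191-5p. The median size was 0.60, and 23.8% of hairpins reached 1. Over the 7 libraries other than ΔmiR-18 the log2 ratio of miR-191 spanned 0.95.

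For miR-425 the arm ratio was 1.85 in ΔmiR-18, 5.63 in the full deletion, 3.29 in ΔmiR-17,18,92, 3.54 in ΔmiR-17,18, 3.20 in ΔmiR-92, 3.75 in ΔmiR-19, 3.25 in ΔmiR-17 and 2.69 in wild type. ΔmiR-18 was therefore the lowest library for the arm ratio of miR-425 as well, as it was for 6.55% of the 168 hairpins. The difference from wild type was -0.54 on the log2 scale, within the middle of the hairpins, at place 91 of 168 by size. In ΔmiR-92, where both arms of miR-425 were low, the arm ratio was 3.20, against 2.69 in wild type.

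**Figure D4:**
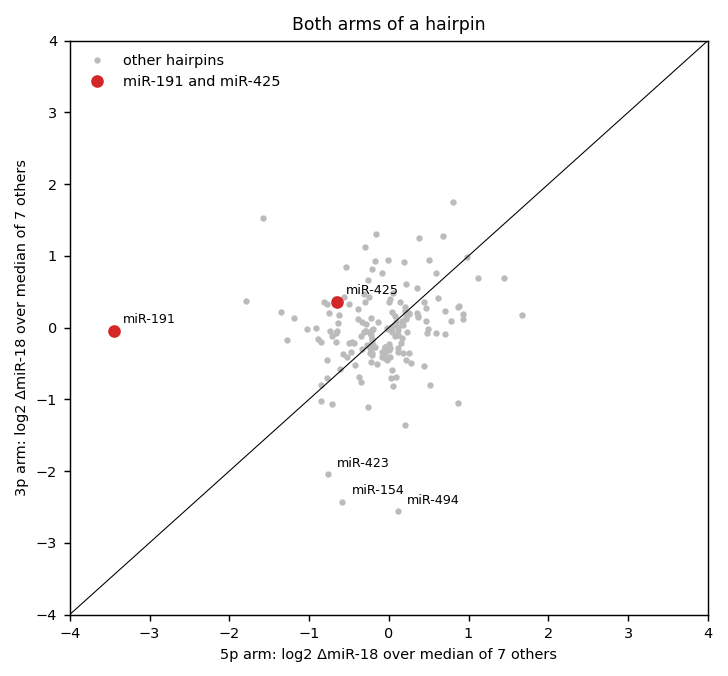
Log2 ratio of ΔmiR-18 to the median of the other 7 libraries for the 3p arm against the 5p arm of 168 hairpins. miR-191 lies at -3.45 for the 5p arm and -0.04 for the 3p arm, away from the diagonal on which both arms share a difference, and miR-425 lies at -0.65 for the 5p arm and 0.36 for the 3p arm.

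The ratio of miR-191-5p to miR-425-5p compares the guide arms of the neighbours. It was 1.96 in ΔmiR-18, 9.66 in the full deletion, 10.8 in ΔmiR-17,18,92, 24.7 in ΔmiR-17,18, 32.7 in ΔmiR-92, 14.0 in ΔmiR-19, 6.85 in ΔmiR-17 and 12.4 in wild type. It was lowest in ΔmiR-18 and highest in ΔmiR-92, where miR-425-5p was lowest. The log2 ratio in ΔmiR-18 was 2.66 below that in wild type, and over the other 7 libraries it spanned 2.26. Most of that difference is the value of miR-191-5p by which the arms were chosen (-3.31, against -0.65 for miR-425-5p), so its place among pairs is a description only. Of 16 pairs of neighbour hairpins it was the largest in size, followed by miR-302a-3p with miR-367-3p at -2.06 and miR-132-3p with miR-212-3p at -1.62, and 37.5% of the pairs differed by at least 1. With both arms added, miR-191 had 421 nRPM in ΔmiR-18 and between 3119 and 5773 nRPM in the others. miR-425 had 316 nRPM in ΔmiR-18, between its lowest of 194 nRPM in ΔmiR-92 and its highest of 592 nRPM in ΔmiR-17, with 440.1 nRPM in wild type.

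The correlations of log2 levels are descriptions over 8 libraries that share their scaling. No difference between them was tested, and miR-191-3p, with 153 to 321 reads, spanned 1.71-fold. Pearson's r was 0.16 between the arms of miR-191 and 0.66 between those of miR-425, and without ΔmiR-18 it was 0.12 and 0.83. Between miR-191-5p and miR-425-5p r was 0.23, and it was -0.54 without ΔmiR-18, so its sign rested on that library.

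The miRNAs most like each arm were sought among those averaging 100 nRPM or more. For miR-191-5p they were miR-423-3p (r = 0.92), miR-501-3p (0.91), miR-667-3p (0.91), miR-433-3p (0.88) and miR-154-3p (0.86). This likeness rests largely on the low value that chose miR-191-5p, since without ΔmiR-18 r was 0.16 for miR-423-3p, 0.76 for miR-501-3p, 0.18 for miR-667-3p, 0.45 for miR-433-3p and -0.03 for miR-154-3p. miR-501-3p had 416 nRPM in ΔmiR-18 and between 587 and 970.1 nRPM in the others. miR-433-3p had 2162 nRPM in ΔmiR-18 and between 3216 and 5296 nRPM in the others. For miR-425-3p the nearest were miR-99b-3p (0.98), miR-101a-3p (0.89), miR-615-3p (0.88), miR-221-3p (0.88) and miR-203-3p (0.88).

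miR-425-5p was most like miR-18b-5p (0.97), of the paralog cluster of miR-106a, followed by miR-1983 (0.87), miR-325-5p (0.83), miR-34a-5p (0.80) and miR-134-5p (0.79). miR-18b-5p had its lowest level, 1096 nRPM, in ΔmiR-92. For miR-191-3p they were miR-192-5p (0.80), miR-450b-3p (0.79), miR-30c-5p (0.74), miR-434-3p (0.70) and miR-127-3p (0.69).

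Other miRNAs often used as references for normalisation were examined because miR-191-5p belongs to that group of uses. Of 10 such miRNAs, 2 were at least 2-fold lower in ΔmiR-18 than in wild type, miR-423-3p (log2 ratio -2.19) and miR-423-5p (-1.94), both of 1 hairpin, and 0 were higher. Among all 551 miRNAs 8.53% were lower and 9.26% higher by that much. The median log2 ratio of the 10 was 0.05, and their spans over the 8 libraries ran from 1.45-fold to 6.55-fold.

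A model over all 8 libraries with 1 term for the loss of each cluster family asked whether the remaining 3 arms moved with a deleted family. limma called 4 of 551 miRNAs for the miR-17 term (0.726%), 2 for the miR-18 term (0.363%), 4 for the miR-19 term (0.726%) and 2 for the miR-92 term (0.363%) at an adjusted p of 0.05, and 0 of the 3 arms for any term. None of them reached an unadjusted p of 0.05 either, and edgeR and DESeq2 on the recovered reads also called 0. The largest estimate was that of miR-425-5p for loss of the miR-17 family, 0.83 ± 0.39 (log2, SE, limma adjusted p = 0.996). For loss of miR-18a the estimates were -0.31 ± 0.39 for miR-425-5p, -0.03 ± 0.44 for miR-425-3p and -0.07 ± 0.37 for miR-191-3p (limma adjusted p = 0.988 each). For loss of miR-92a-1 they were -0.26 ± 0.36, -0.52 ± 0.41 and 0.38 ± 0.35 in the same order. The model had 3 residual degrees of freedom.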

How the data were processed

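Each mature miRNA has 1 deposited signal value in each library, in a table of 1046 rows and 977 accessions. Per the submitters' processing notes, reads were handled with STAR 2.2.0, SAMtools 0.1.19 and featureCounts of Subread 1.4.2 on mm9. The sources used here do not state how reads that map to several places were treated. The authors' deposited signal values were whole multiples of 1 read's worth in each library (100% within 0.001 reads), so reads were recovered. Rows of 1 accession that differed by 10% or less were merged, which left 986 rows. Values were multiplied by 0.1159 to give nRPM, which puts the libraries near the scale of RPM.

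Single levels have exact Poisson intervals and ratios exact conditional (Clopper-Pearson) intervals. Calls were made among miRNAs averaging 10 nRPM or more, at 2-fold. limma 3.58.1 (R 4.3.3) was run on log2(nRPM + 1) with trend and Benjamini-Hochberg adjustment over 551 miRNAs, and its p-values reflect how single libraries of different genotypes vary. Although recovered reads are counts, the table holds normalised values, so edgeR 4.0.16 and DESeq2 1.42.0 were alternatives. The limma model was tested on simulated data. The most similar miRNAs were the 5 with the highest Pearson r among those averaging 100 nRPM or more. Named pairs were the 3 that differed most. The members and lists were chosen with earlier results of these data known. The library of undetermined genotype entered no comparison.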

Additional observations from a re-analysis of the deposited data

How the results depend on the processing

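Of the recomputed values, 430 stayed within counting error or on the same side of the threshold, 52 moved by more, and no called value changed sign. The log2 ratio of miR-191-5p in ΔmiR-18 to wild type was -3.36 with plain library totals and -3.45 with the median of the other 7 libraries in place of wild type, an alternative chosen after seeing the data. With that median miR-425-3p was at 0.36, against -0.11 relative to wild type. Set against the median of the other 7, plain library totals gave -3.69 for miR-191-5p, -0.33 for miR-191-3p, -0.85 for miR-425-5p and 0.081 for miR-425-3p, and TMM factors gave -3.41 for miR-191-5p. With plain library totals 20.7% of miRNAs were lowest in ΔmiR-18, and 1 arm was 2-fold from wild type in ΔmiR-92. The median of all log2 ratios to wild type ran from -0.08 (ΔmiR-18) to 0.38 (ΔmiR-17,18,92) with plain totals. In the main setting it was -0.02 in ΔmiR-18 and 0.01 in ΔmiR-17,18,92. Leaving out each other library gave -3.50 to -3.38 for miR-191-5p, -0.66 to -0.63 for miR-425-5p and 0.26 to 0.38 for miR-425-3p. No alternative called any of the 3 tested arms, with adjusted p between 0.328 and 0.9999 in limma, edgeR and DESeq2. With plain library totals miR-425-5p reached an unadjusted p of 0.0388 for the miR-17 term. Without ΔmiR-17,18, miR-425-5p reached an unadjusted p of 0.0139 for the miR-17 term and miR-425-3p 0.0246 for the miR-92 term. No paired analysis was possible because each genotype had 1 library. The 153 to 321 reads of miR-191-3p leave neighbours in its order overlapping.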

Other observations

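The library of undetermined genotype, with 3024805 reads, had 3088 nRPM of miR-191-5p, 17.9 nRPM of miR-191-3p, 243 nRPM of miR-425-5p and 78.8 nRPM of miR-425-3p.

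The 4 miRNAs outside the cluster that were at least 4-fold below the median of the other 7 libraries in ΔmiR-18 all hold the letters CGG, read 5′ to 3′ on the mature miRNA. The letters were chosen after these sequences had been seen, so the counts are a description and were not tested. CGG was present in 67 of 425 plotted miRNAs with a RefSeq sequence (15.8%). Of the 67, 4 were at least 4-fold below that median, against 0 of the 358 without CGG, which follows from how the letters were chosen. With these 4 included, the median log2 ratio was -0.18 with CGG and 0.01 without. The ratio was below 0 in 44 of 67 with CGG, again with the 4 included, and in 177 of 358 without. miR-425-3p also holds CGG and had a log2 ratio of 0.36.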
